A study of Homo sapiens with 3 samples.

Results

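The 10 mature miRNAs described here belong to the miR-10, miR-99/100 and miR-125 families. They were taken by name from the count tables: hsa-miR-10a-5p, hsa-miR-10b-5p, hsa-miR-99a-5p, hsa-miR-99b-5p, hsa-miR-100-5p, hsa-miR-125a-5p and hsa-miR-125b-5p as guide arms, with the passenger arms hsa-miR-125a-3p, hsa-miR-125b-1-3p and hsa-miR-125b-2-3p. The prefix hsa, for human, is dropped below. All 10 were among the 2588 human miRNAs listed for each library, and 9 of them averaged 20 counts or more across the 3 libraries, as 231 of all listed miRNAs did. The study sequenced small RNA from SK-MEL-2, a long-established line of human melanoma cells, grown here in serum-containing medium. Cells received no treatment, a plasma jet for 3 min or a plasma jet for 5 min, and were collected on Day 2. A nonthermal plasma jet is a stream of partly ionised gas close to room temperature, and 3 min and 5 min below name the length of exposure. Each group was 1 library of total RNA, so every difference below is between libraries and has no replicate check. No significance test was possible, and the bracketed ranges are exact 95% intervals of counting error alone.

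Each miRNA hairpin yields a 5p and a 3p arm; the arm kept by Argonaute is the guide and the other, usually scarcer, is the passenger. Bases 2 to 8 of the guide, the seed, direct most pairing with target mRNAs. The miR-10 genes lie in the HOX gene clusters. The other families sit in clusters that join a miR-99 or miR-100 hairpin, a let-7 hairpin and a miR-125 hairpin, an arrangement also found in Drosophila. miR-99 and miR-100 repress MTOR in human cells, and miR-125b represses LIN28A.

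The mature sequences from RefSeq (GRCh38.p14) are shown because the seeds, in capitals, define the groups used below; 9 of the 10 members had an entry.
miR-10a-5p: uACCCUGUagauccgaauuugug
miR-99a-5p: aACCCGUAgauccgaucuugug
miR-99b-5p: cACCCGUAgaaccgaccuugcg
miR-100-5p: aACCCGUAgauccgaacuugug
miR-125a-5p: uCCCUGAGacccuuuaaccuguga
miR-125b-5p: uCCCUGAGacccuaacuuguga
miR-125a-3p: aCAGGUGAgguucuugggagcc
miR-125b-1-3p: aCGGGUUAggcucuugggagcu
miR-125b-2-3p: uCACAAGUcaggcucuugggac

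The matched guides held 3 seeds, and the 3 passenger arms had 3 further seeds. miR-99a-5p, miR-99b-5p and miR-100-5p share the seed ACCCGUA. miR-99a-5p and miR-100-5p differ by the single substitution U16A (positions from the 5′ end, the miR-99a-5p base first), so the counting of either could include reads of the other and their separate values are uncertain. miR-99a-5p and miR-99b-5p differ by 4 substitutions, A1C, U11A, U16C and U21C. miR-125a-5p and miR-125b-5p share CCCUGAG and their first 13 bases, and lie 3 edits apart. The passenger arms miR-125a-3p and miR-125b-1-3p differ at 4 positions, of which A3G and G7U fall in the seed. miR-4319, the 1 other listed miRNA with a guide seed of these families (CCCUGAG), had 0 counts in all 3 libraries. Taking 3 counts as the limit that a count of 0 allows, its level could be up to 2.87 CPM in the control, 3.10 CPM at 3 min and 4.87 CPM at 5 min (CPM, counts scaled to a common library total).

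The hairpins follow with their mature arms in capitals, for the loci where the arms or neighbours parted most. MIR125B1 lies at chr11:122099757-122099844 on the minus strand, MIR99B at chr19:51692612-51692681 on the plus strand and MIR125A at chr19:51693254-51693339 on the plus strand (GRCh38).
MIR125B1: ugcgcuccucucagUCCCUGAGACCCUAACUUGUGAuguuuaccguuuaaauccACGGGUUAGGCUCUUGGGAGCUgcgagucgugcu
MIR99B: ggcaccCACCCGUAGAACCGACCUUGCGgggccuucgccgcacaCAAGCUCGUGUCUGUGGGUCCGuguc
MIR125A: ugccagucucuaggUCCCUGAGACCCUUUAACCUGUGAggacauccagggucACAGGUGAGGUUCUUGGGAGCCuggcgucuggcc

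The control library held 1045482 counts, the 3 min library 966943 and the 5 min library 615645, so depth was lower at each longer exposure and its part in the ratios was not tested. Ratios were scaled by TMM, a trimmed mean of log ratios, with factors between 0.991 and 1.01. Of 8 melanocyte and melanoma markers, 3 had counts in every library: miR-204-5p with 2608 in the control, 2535 at 3 min and 1257 at 5 min, miR-211-5p with 128, 97 and 65 in that order, and miR-146a-5p with 1319, 1442 and 1139. The other 5, from the X-linked miR-506 to miR-514 cluster, had 0 counts throughout. Markers of epithelial cells (6 listed) summed to 15, 24 and 40 counts in the control, 3 min and 5 min libraries. Those of blood (5 listed) summed to 12, 17 and 9, and those of muscle (4 listed) to 1, 3 and 15. The 1 neural marker listed, miR-124-3p, was at 0, but miR-9-5p, also a neural miRNA, had 16885, 14199 and 11140 counts. Epithelial miR-205-5p and myeloid miR-223-3p also had 0 counts throughout. Liver miR-122-5p had 114, 117 and 76 counts in the same order, and the smooth muscle and fibroblast markers miR-143-3p and miR-145-5p summed to 86, 110 and 59. Their part in the ratios below was not tested. In bulk RNA, fewer cells of a type and less RNA per cell cannot be told apart.

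Together the 10 members held 10.04% of the control counts (9.98 to 10.1), 9.68% at 3 min (9.63 to 9.74) and 8.78% at 5 min (8.71 to 8.85). Most of this came from 2 miRNAs. miR-125b-5p made 4.12% of the control library (4.08 to 4.16), where it ranked 4th of all miRNAs, and miR-99a-5p made 3.29% (3.26 to 3.33) and ranked 6th. miR-125a-5p followed at 0.724% (0.708 to 0.740), then miR-99b-5p at 0.586% (0.572 to 0.601) and miR-100-5p at 0.575% (0.560 to 0.589), whose intervals overlapped. Below these stood miR-10a-5p at 0.382% (0.370 to 0.394) and the passenger arm miR-125b-1-3p at 0.338% (0.327 to 0.349), which ranked 33rd in the control. The remaining passenger arms were far scarcer, with 120 counts for miR-125a-3p and 104 for miR-125b-2-3p in the control. miR-10b-5p had at most 7 counts in any library. At 3 min miR-100-5p, with 5226 counts, and miR-99b-5p, with 5199, again had overlapping intervals. These orders describe read counts; adapter ligation favours some RNA ends, so they are not orders of molar amounts.

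**Figure D1:**
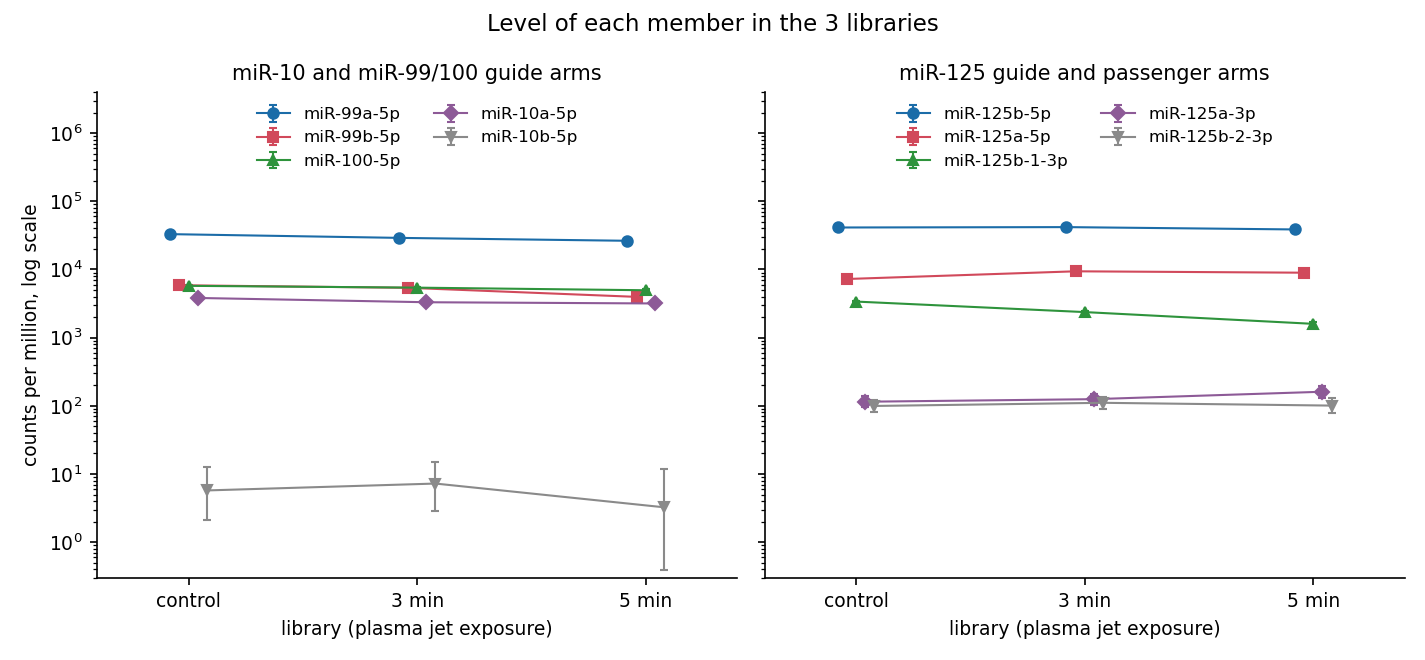
CPM of each member (log axis) in the control, 3 min and 5 min libraries, with exact 95% counting intervals. miR-125b-5p and miR-99a-5p lie highest in all 3 libraries. miR-125b-1-3p is lower at each longer exposure, at 3376 CPM in the control, 2368 at 3 min and 1592 at 5 min.

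In the miR-10 family, which includes regulators of HOX genes, nearly all counts belonged to miR-10a-5p. It had 3990 counts in the control, 3193 at 3 min and 1951 at 5 min, and its library share was lower after both exposures than in the control. At 5 min it was 1.21-fold below control (1.15 to 1.28), and at 3 min 1.15-fold below (1.09 to 1.20). miR-10b-5p, which promotes migration in breast cancer cells, had 6, 7 and 2 counts in the control, 3 min and 5 min libraries. That is too few for a direction: the 5 min to control ratio was 0.562 with an interval of 0.0554 to 3.14. MIR10A (chr17:48579838-48579947, minus strand) overlaps an annotated exon of HOXB4 and an intron of HOXB3, and MIR10B (chr2:176150303-176150412, plus strand) lies in an intron of HOXD3 (GENCODE release 29, GRCh38). The passenger arm miR-10a-3p, examined after its counts were seen, kept a share whose intervals overlapped in all 3 libraries: it made 1.75% of the pair in the control (1.37 to 2.20), 1.75% at 3 min (1.33 to 2.27) and 1.86% at 5 min (1.31 to 2.56).

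All 3 guides of the miR-99/100 family were below control after both exposures. miR-99a-5p had 34423 counts in the control, 28063 at 3 min and 16196 at 5 min, or 3.29%, 2.90% and 2.63% of each library. This was 1.26-fold below control at 5 min (1.24 to 1.29) and 1.12-fold below at 3 min (1.11 to 1.14). miR-100-5p had 6008, 5226 and 3048 counts in the control, 3 min and 5 min libraries, and was 1.17-fold below control at 5 min (1.12 to 1.22) and 1.05-fold below at 3 min (1.01 to 1.09). The shares of miR-99a-5p in the pair with miR-100-5p were 85.1% in the control, 84.3% at 3 min and 84.2% at 5 min. That is a small difference, although the odds at 5 min were 0.927 times those of the control with an interval of 0.884 to 0.973 that left out 1.

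miR-99b-5p stood farther from control than its paralogs after the longer exposure. It had 6129 counts in the control, 5199 at 3 min and 2437 at 5 min. The 5 min level was 1.49-fold below control (1.42 to 1.56), just short of the 1.5-fold size rule used here, which it met under 3 of the 4 other scalings, at log2 ratios between -0.75 and -0.59. The 3 min level was 1.08-fold below (1.04 to 1.12). Relative to miR-99a-5p within the same libraries, which needs no scaling, the odds of miR-99a-5p over miR-99b-5p were 1.18 times those of the control at 5 min (1.12 to 1.25) and 0.961 times at 3 min (0.923 to 1.001). In the control, miR-99b-5p and miR-100-5p could not be ordered beyond counting error; at 5 min miR-100-5p was higher, at 0.495% (0.478 to 0.513) against 0.396% for miR-99b-5p (0.380 to 0.412). The summed counts of the seed group were 1.27-fold below control at 5 min (1.25 to 1.30) and 1.11-fold below at 3 min (1.09 to 1.12).

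The miR-125 guides lay on opposite sides of control at 5 min, while both were lower at 5 min than at 3 min. miR-125a-5p, which represses ERBB2 and ERBB3 in breast cancer cells, had 7569 counts in the control, 9076 at 3 min and 5513 at 5 min, or 0.724%, 0.939% and 0.895% of each library. It was 1.23-fold above control at 5 min (1.19 to 1.27) and 1.31-fold above at 3 min (1.27 to 1.35). miR-125b-5p, the most abundant member, had 43083, 40361 and 23750 counts in the control, 3 min and 5 min libraries. Its log2 ratio to control was -0.11 at 5 min (-0.13 to -0.08) and 0.03 at 3 min (0.01 to 0.05), and the sign of the 3 min value changed with the scaling. Between the exposures, 5 min against 3 min, the log2 ratio was -0.09 for miR-125a-5p and -0.14 for miR-125b-5p. Within the pair, miR-125a-5p made 14.9% in the control (14.6 to 15.3), 18.4% at 3 min (18.0 to 18.7) and 18.8% at 5 min (18.4 to 19.3). The sum of both guides lay near control, at log2 ratios of -0.04 at 5 min (-0.06 to -0.02) and 0.09 at 3 min (0.07 to 0.11). These small values moved with the scaling. With TMM over all listed miRNAs, the 5 min log2 ratio was -0.21 for the sum and 0.13 for miR-125a-5p.

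**Figure D2:**
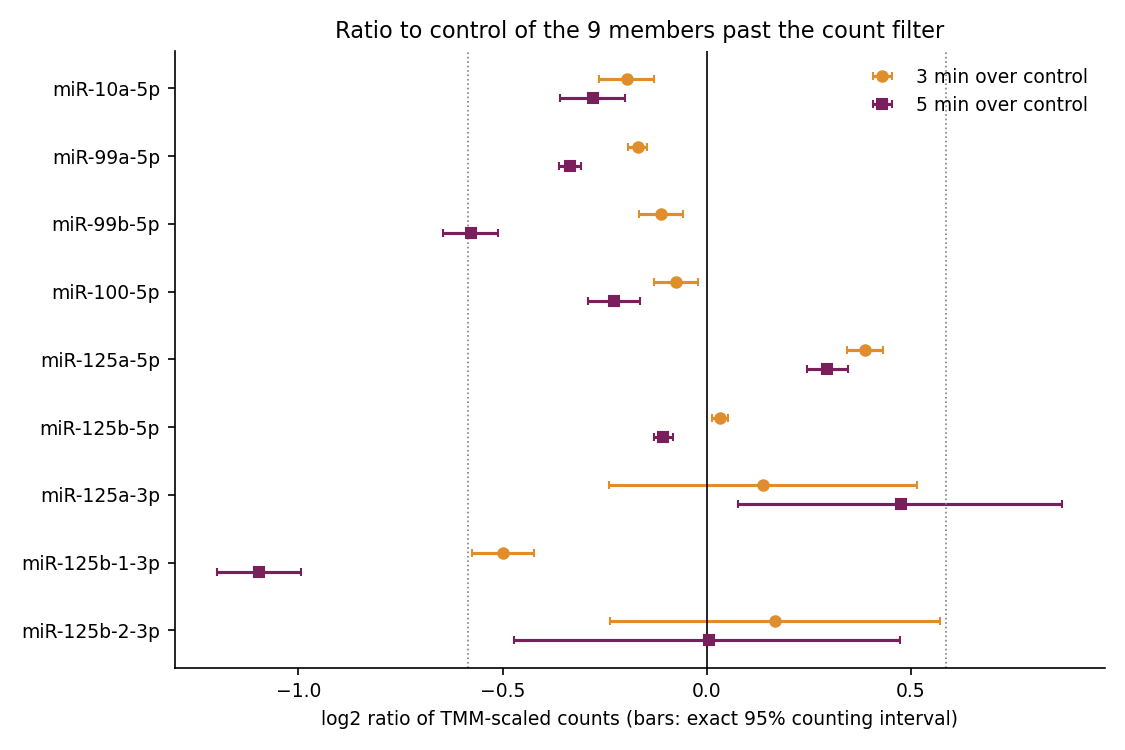
log2 ratio of TMM-scaled counts, 3 min and 5 min plasma over control, for the 9 members past the count filter; bars are exact 95% counting intervals and dotted lines mark 1.5-fold. miR-125b-1-3p lies farthest below control, at -0.50 at 3 min and -1.10 at 5 min. miR-125a-5p lies above control, at 0.39 and 0.30, as does miR-125a-3p at 5 min, at 0.48.

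The passenger arm of MIR125B1 stood farthest from control among the 9 members past the filter. miR-125b-1-3p had 3530 counts in the control, 2290 at 3 min and 980 at 5 min. Its share of the library was lower at each longer exposure, at 0.338%, 0.237% and 0.159% in that order. The 5 min library was 2.14-fold below control (1.99 to 2.30), the 3 min library 1.41-fold below (1.34 to 1.49), and the 5 min library 1.51-fold below the 3 min library (1.40 to 1.63). Its rank among all miRNAs was 33 in the control, 42 at 3 min and 47 at 5 min. Among the 58 miRNAs averaging 1000 counts or more it had the lowest ratio to control after both exposures. Among all 231 past the filter it was 5th lowest at 5 min and 16th lowest at 3 min.

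Its guide arm lay much nearer control. miR-125b-1-3p, the second block of capitals in the MIR125B1 hairpin above, made 7.57% of the counts of the pair with miR-125b-5p in the control (7.33 to 7.82), 5.37% at 3 min (5.16 to 5.59) and 3.96% at 5 min (3.72 to 4.21). There were 12.2 guide counts for each passenger count in the control, 17.6 at 3 min and 24.2 at 5 min. The odds of the passenger arm were 0.504 times those of the control at 5 min (0.468 to 0.542) and 0.692 times at 3 min (0.656 to 0.731). These shares are taken within a library and so do not depend on the scaling factors. miR-125b-5p has the same sequence in MIR125B1 and MIR125B2, so its counts cannot be divided between the hairpins, and 7.57% is a lower limit on the passenger share of MIR125B1 alone in the control.

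The passenger arm of MIR125B2 had overlapping intervals in all 3 libraries. miR-125b-2-3p had 104 counts in the control, 107 at 3 min and 62 at 5 min, and its share of the pair with miR-125b-5p was 0.241% (0.197 to 0.292), 0.264% (0.217 to 0.319) and 0.260% (0.200 to 0.334) in that order. Its log2 ratio to control was 0.01 at 5 min, with an interval of -0.47 to 0.47 and a sign that changed with the scaling, so a difference below about that size was not detectable at this depth. Of the 3p counts from both miR-125b hairpins, miR-125b-1-3p made 97.1% in the control (96.5 to 97.7), 95.5% at 3 min (94.6 to 96.3) and 94.05% at 5 min (92.4 to 95.4). The odds of miR-125b-1-3p over miR-125b-2-3p were 0.466 times those of the control at 5 min (0.334 to 0.654) and 0.631 times at 3 min (0.474 to 0.838).

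miR-125a-3p, the passenger arm of MIR125A, pointed the way of its guide at 5 min. It had 120 counts in the control, 121 at 3 min and 99 at 5 min. At 5 min it was 1.39-fold above control (1.05 to 1.83), and at 3 min its ratio of 1.10 had an interval of 0.848 to 1.43 that included 1. As a log2 ratio the 5 min value was 0.48 (0.08 to 0.87), and 0.31 under TMM over all listed miRNAs, for which no interval was computed. Its share of the pair with miR-125a-5p was 1.56% in the control (1.30 to 1.86), 1.32% at 3 min (1.09 to 1.57) and 1.76% at 5 min (1.44 to 2.14). The odds of the 3p arm at 5 min were 1.35 times those at 3 min, with an interval of 1.02 to 1.78 that left out 1, and 1.13 times those of the control, with an interval of 0.857 to 1.49 that included it. miR-99b-3p, an arm pair examined after its counts were seen, had 1283 counts in the control, 1037 at 3 min and 623 at 5 min. It made 17.3% of the miR-99b pair in the control (16.5 to 18.2), 16.6% at 3 min (15.7 to 17.6) and 20.4% at 5 min (18.9 to 21.8). The odds of the 3p arm at 5 min were 1.22 times those of the control (1.10 to 1.36). At 5 min this passenger arm lay less far below control than its guide, at 1.22-fold (1.11 to 1.35) against 1.49-fold for miR-99b-5p, the opposite balance to MIR125B1.

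**Figure D3:**
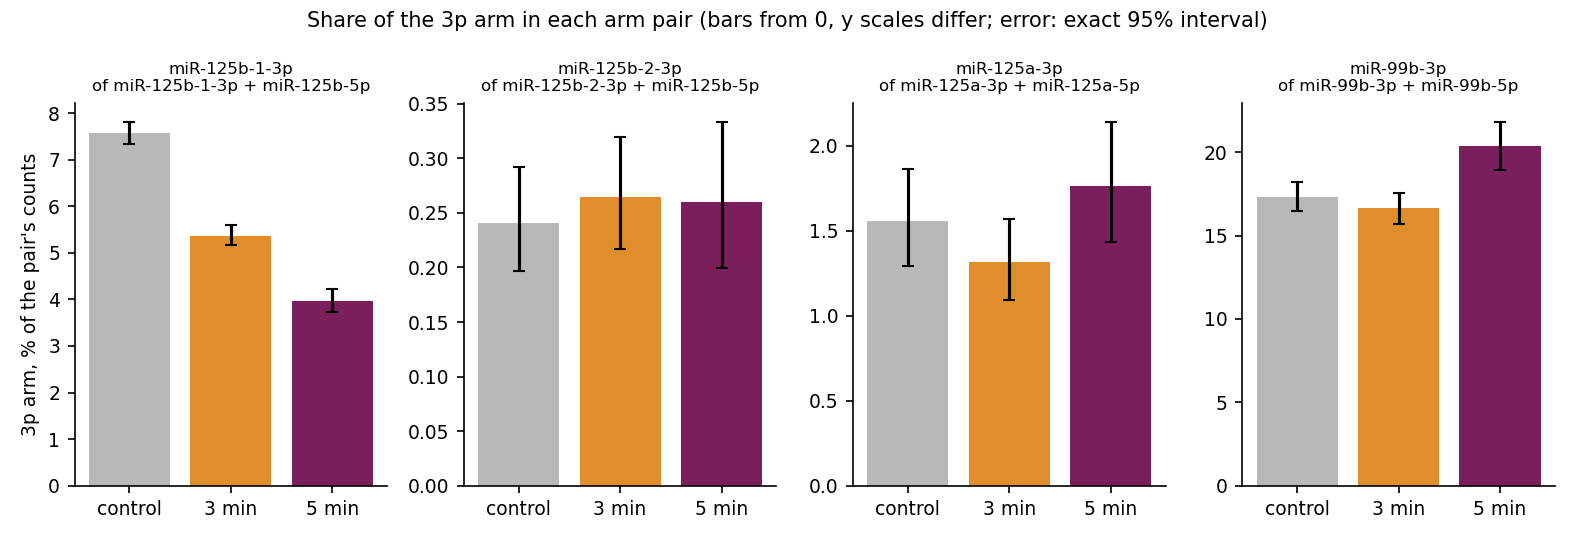
Share of the 3p arm in the counts of its arm pair, in percent, in the control, 3 min and 5 min libraries, with exact 95% intervals; bars start at 0 and the axes differ in scale. miR-125b-1-3p stands at 7.57%, 5.37% and 3.96%, in the order control, 3 min and 5 min. In the same order, miR-125b-2-3p stands at 0.241%, 0.264% and 0.260%, and miR-125a-3p at 1.56%, 1.32% and 1.76%. The arm miR-99b-3p, examined after its counts were seen, stands at 17.3%, 16.6% and 20.4%.

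The cluster neighbours are from a list of 11 other arms and let-7 members of these loci, of which 7 passed the count filter. None of the 7 was 1.5-fold from control at either exposure. Of the 231 miRNAs, 17.3% were higher and 11.7% lower by this rule at 5 min, and 6.93% and 5.19% at 3 min. The median log2 ratio of the 7 to control was -0.28 at 5 min and -0.07 at 3 min, against 0.05 over the 231 at both. Over the 58 miRNAs averaging 1000 counts or more it was -0.11 at 5 min and 0.02 at 3 min. In the 5 min against the 3 min library, 1 of the 7 was at least 1.5-fold higher, against 13.0% of the 231. It was let-7c-3p, with 21 counts in each of these libraries. On chromosome 21, MIR99A (chr21:16539089-16539169) and MIRLET7C (chr21:16539828-16539911) lie 739 bases apart, start to start, in an intron of the long noncoding gene MIR99AHG. Their guides lay near each other in ratio to control: miR-99a-5p made 59.2% of the pair with let-7c-5p in the control (58.8 to 59.6), 58.4% at 3 min (57.9 to 58.8) and 58.6% at 5 min (58.0 to 59.2). let-7c-5p, a repressor of RAS mRNAs, had 23690, 20021 and 11455 counts in the same order and was 1.23-fold below control at 5 min (1.20 to 1.26). MIR125B2 (chr21:16590237-16590325) starts 51148 bases after the start of MIR99A.

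On chromosome 19, neighbours whose starts are 642 bases apart lay on opposite sides of control. MIR99B, MIRLET7E (chr19:51692786-51692864) and MIR125A lie within 728 bases in an intron of SPACA6. Counts of miR-99b-5p in the pair with miR-125a-5p, a pairing examined after its counts were seen, were 44.7% in the control (43.9 to 45.6), 36.4% at 3 min (35.6 to 37.2) and 30.7% at 5 min (29.6 to 31.7). The odds of miR-99b-5p over miR-125a-5p were 0.546 times those of the control at 5 min (0.515 to 0.579) and 0.707 times at 3 min (0.674 to 0.742). let-7e-5p, from the hairpin between them, had 2306 counts in the control, 2008 at 3 min and 1126 at 5 min. It stood between its neighbours at 5 min, with a log2 ratio to control of -0.28 (-0.39 to -0.18), against -0.58 for miR-99b-5p and 0.30 for miR-125a-5p.

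On chromosome 11, miR-125b-1-3p lay farther below control than miR-100-5p. MIR100 (chr11:122152229-122152308), MIRLET7A2 (chr11:122146522-122146593) and MIR125B1 lie within 52552 bases of the minus strand, in introns of MIR100HG. The odds of miR-125b-1-3p over miR-100-5p, also examined after its counts were seen, were 0.547 times those of the control at 5 min (0.503 to 0.595) and 0.746 times at 3 min (0.699 to 0.796). let-7a-2-3p, the passenger arm of the let-7 hairpin there, had 1 count in the control, 3 at 3 min and 2 at 5 min, too few for a direction. let-7a-5p had 19203, 18447 and 10451 counts in that order, but its sequence comes from 3 hairpins on different chromosomes.

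**Figure D4:**
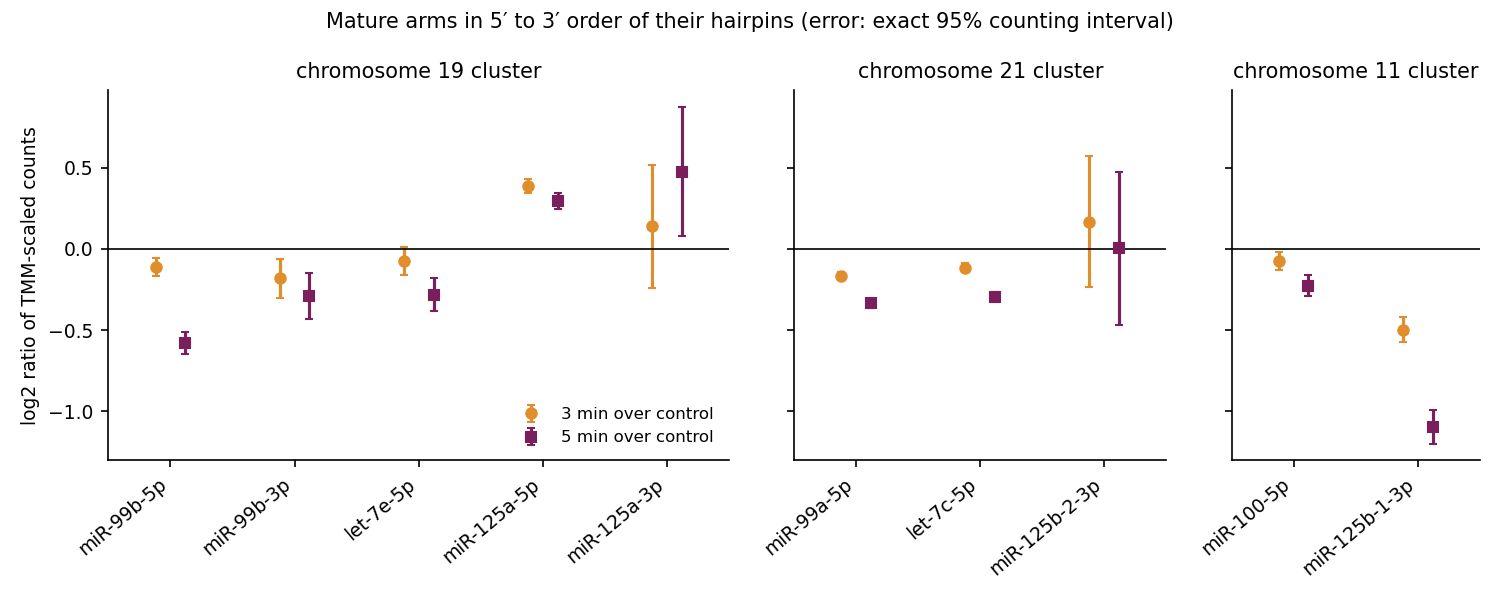
log2 ratio of TMM-scaled counts over control at 3 min and 5 min for mature arms in the 5′ to 3′ order of their hairpins, with exact 95% counting intervals; arms of fewer than 20 mean counts, let-7c-3p, let-7e-3p and the arms made by several loci are not drawn. On chromosome 19, miR-99b-5p lies at -0.58 and miR-125a-5p at 0.30 at 5 min, while miR-99a-5p and let-7c-5p on chromosome 21 lie together at -0.34 and -0.30.

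Against the whole table, the median of the members was lower than that of all miRNAs at 5 min. Of the 9 past the filter, 1 was at least 1.5-fold lower than control, miR-125b-1-3p, against 11.7% of the 231 miRNAs, and the same 1 was at least 2-fold lower, against 3.46%; 0 were 1.5-fold higher, against 17.3%. The balance over all 231 depended on the scaling, with 40 miRNAs higher and 27 lower here but 27 higher and 40 lower under TMM over all listed miRNAs. Counting intervals lay wholly below a ratio of 1 for 6 of the 9 and wholly above it for 2, against 26.0% and 29.0% of all 231. Abundant miRNAs have narrow intervals: of the 58 averaging 1000 counts or more, 7 of them members, 32 lay wholly below and 20 wholly above. The members' median log2 ratio was -0.23, against 0.05 over the 231 and -0.11 over those 58.

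At 3 min, 0 members were 1.5-fold lower or higher than control, against 5.19% and 6.93% of the 231 miRNAs. Intervals lay wholly below 1 for 5 of the 9 members and wholly above it for 2, against 14.3% and 23.4%. Of the 58 averaging 1000 counts or more, 17 lay wholly below and 25 wholly above. The median was -0.08 for the members, 0.05 over the 231 and 0.02 over the 58. The ratios at both exposures share the control library, so they are not independent. Between the exposures, 5 min against 3 min, 1 member was at least 1.5-fold lower, miR-125b-1-3p, against 8.66% of the 231, and 0 were 1.5-fold higher, against 13.0%. Scaled by the library total, miR-125b-1-3p had a log2 ratio of -0.57 in this comparison and no longer met the rule. Under TMM over all listed miRNAs 23 of the 231 were higher and 31 lower, in place of 30 and 20. The median was -0.15 for the members, 0.02 over the 231 and -0.12 over the 58.

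**Figure D5:**
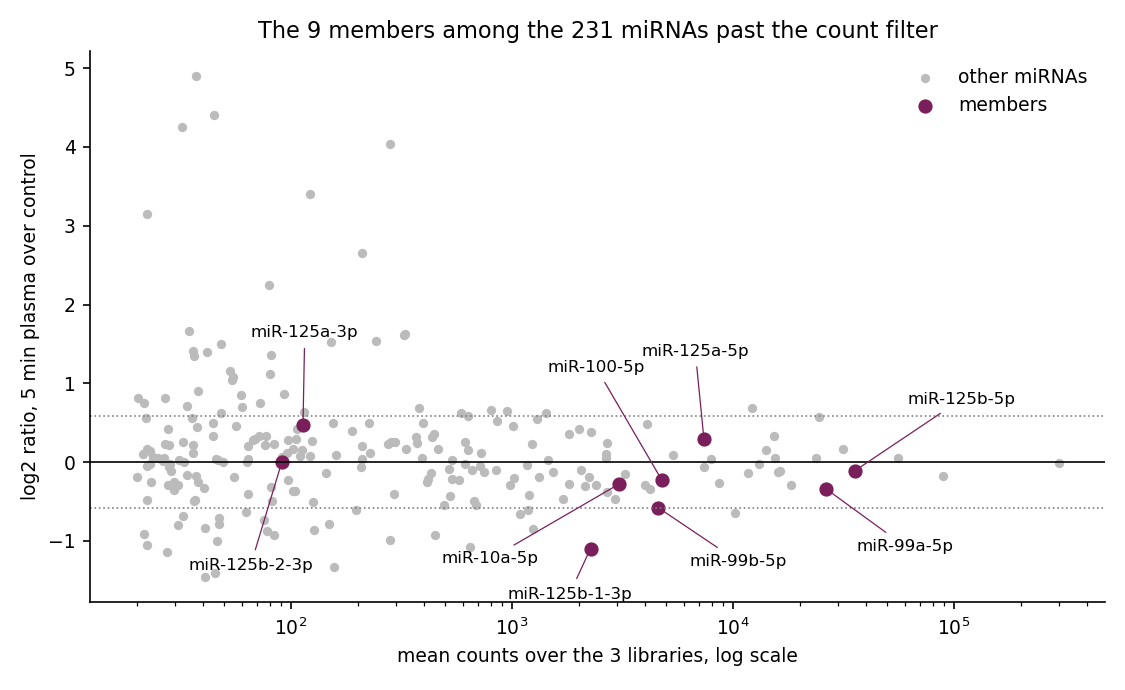
log2 ratio of 5 min plasma over control against the mean count over the 3 libraries (log axis) for the 231 miRNAs past the filter, members in purple and dotted lines at 1.5-fold. miR-125b-1-3p, at -1.10, lies lowest among the miRNAs averaging 1000 counts or more, and the other members lie between -0.58 and 0.48.

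The miRNAs whose pattern was most like each member were found by the distance between their pairs of log2 ratios to control. The pairs were those at 3 min and 5 min, so over 3 libraries. Candidates were the non-members among the 109 miRNAs averaging 200 counts or more, so no member could be nearest to another. For miR-125b-1-3p the nearest were miR-340-3p at a distance of 0.16, let-7a-3p at 0.21 and miR-7-5p at 0.50. miR-340-3p had 443, 265 and 133 counts in the control, 3 min and 5 min libraries, and let-7a-3p 663, 468 and 208. let-7a-5p, the other arm of let-7a, had a log2 ratio to control of -0.12 at 5 min, against -0.92 for let-7a-3p. A 3p arm far below control beside a nearer 5p arm was thus not particular to MIR125B1. For miR-10a-5p the nearest was miR-99b-3p at 0.02, for miR-99a-5p it was miR-455-5p at 0.04, for miR-100-5p let-7i-5p at 0.05 and for miR-125b-5p miR-135b-5p at 0.01. miR-99b-5p was nearest to miR-30e-3p at 0.08 and miR-125a-5p to miR-17-5p at 0.17.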

How the data were processed

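Small RNA was sequenced from 3 libraries of SK-MEL-2 cells, 1 per group, and groups were taken from the labels. Per the labels' protocols, Trizol was used for extraction and a NEBNext small-RNA kit for library preparation. The files deposited by the authors hold raw read counts for each mature miRNA; the submitters' processing notes name Bowtie2, bedtools and edgeR, with no version or role. Build, annotation and the assignment of reads shared between miRNAs were not given in the sources used here, nor were molecular identifiers, so PCR copies may count as reads.

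Counts were scaled with TMM (edgeR 4.0.16, R 4.3.3) over the 231 miRNAs averaging 20 counts or more. Ratios, with no pseudocount, have exact Clopper-Pearson intervals, and odds ratios have exact conditional intervals, both at 95% (Python 3.11.15, scipy 1.17.1). Both steps were tested on simulated data. With 1 library per group, at least 1.5-fold stood in for a test. The members, neighbour lists and size rule were chosen with earlier results of these data known. Named non-members were the neighbour list, same-seed miRNAs, cell type markers and the nearest patterns. DESeq2 1.42.0 size factors were 1 of 4 other scalings tried. Loci and hosts came from GENCODE release 29 and sequences from RefSeq.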

Additional observations from a re-analysis of the deposited data

Results flagged for a closer look

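miR-125b-5p stood on opposite sides of control at the 2 exposures under the TMM scaling used above. Its log2 ratio to control was -0.11 at 5 min (-0.13 to -0.08) and 0.03 at 3 min (0.01 to 0.05), a difference of -0.14 between exposures. This difference was not tested, since each exposure was 1 library. The 3 min value was -0.03 under TMM over all listed miRNAs and -0.001 under DESeq2 size factors, the same side of control as at 5 min.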

How the results depend on the processing

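No paired analysis was possible because each group held 1 library; leaving out a replicate was impossible for the same reason. Under 4 other scalings, 7 of the 9 members past the filter kept the sign of all 3 ratios. The exceptions were miR-125b-5p at 3 min and miR-125b-2-3p at 5 min, both near 0. Sizes were less stable. Of the members' rescaled ratios, 84 stayed inside the counting interval first obtained and 24 left it. Of the rescaled sums of the 3 seed groups, 21 stayed inside and 15 left. TMM over all listed miRNAs shifted the median log2 ratio of the 231 miRNAs by -0.17 for 5 min against control, -0.06 for 3 min against control and -0.11 for 5 min against 3 min. It gave members' medians of -0.40, -0.13 and -0.26 in that order. Under it, under DESeq2 size factors and under the total without the 10 most abundant miRNAs, 2 of the 9 members were 1.5-fold below control at 5 min, the second being miR-99b-5p. Of the 231 miRNAs, 40, 28 and 28 were 1.5-fold below control under these scalings, in that order. By the library total, 0 members were 1.5-fold lower in the 5 min than in the 3 min library, against 16 of the 231 miRNAs. Under a 2-fold rule 0 members were lower in this comparison, against 2 of the 231. A filter at a mean of 5 counts, or at 1 count in any library, let in miR-10b-5p with 2 counts at 5 min. Either filter gave 2 of 10 members at 1.5-fold for 5 min against control and 2 of 10 for 5 min against 3 min. Over all miRNAs, counts at 1.5-fold for 5 min against control were 67 of 231, or 145 of 349 and 274 of 965 with those filters and 30 of 231 at 2-fold. TMM over all listed miRNAs kept 67 but with 27 higher and 40 lower, in place of 40 and 27. For 3 min against control the counts were 28, or 80, 151 and 7, and for 5 min against 3 min 50, or 135, 272 and 17, out of the same totals. Summing all miR-125b arms in the denominator left the 6 odds ratios inside their intervals. Depth limits the scarce arms: 1 count was worth 0.956 CPM in the control, 1.03 CPM at 3 min and 1.62 CPM at 5 min.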
